A study of Mus musculus with 15 samples.

Results

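The solute carriers are the membrane transporters named Slc plus a family number, and here they were taken as the protein-coding mouse genes whose symbol starts with Slc, a number, the letter a and a number, at a mean of 2 CPM or more (counts scaled to library size) over the 15 samples. Of 346 such genes among the 36528 gene IDs measured, 190 were members. A further 145 lay under the threshold, of which 25 had 0 reads in every sample, and 11 genes set aside by name were not used. The threshold fell between Slc6a20b at 2.05, Slc2a2 at 2.12 and Slc39a5 at 2.17 CPM above it and Slc26a6 at 1.94, Slc7a4 at 1.85 and Slc9a5 at 1.82 CPM under it. The pattern also took 4 genes that are not carriers themselves, namely Slc9a3r1 and Slc9a3r2, scaffolds that bind carrier tails, Slc4a1ap and Slc7a6os. It left out carriers with other names, such as the Slco family and Slc35b to Slc35g, some of which are described near the end.

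RNA was sequenced from cortical microglia sorted for green fluorescent protein under control of Cx3cr1, a receptor gene of microglia and related macrophages, so every sample in both groups carried the Cx3cr1::GFP reporter. The mice of the disease model were PS2APP (n = 9), which carry transgenes for mutant human amyloid precursor protein and presenilin 2 as a model of Alzheimer's disease, and of which 4 samples were taken at 14 months of age and 5 at 15 months. The others were non-Tg mice without these transgenes (n = 6), 2 at 14 months and 4 at 15 months. The promoters of the transgenes, the copies of the reporter and the number of mice per sample are not stated in the sources used here. The p-values therefore cover the spread among samples, which may be technical.

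Solute carriers move sugars, amino acids, ions, metals, nucleosides and metabolites across membranes along or against gradients, without the direct use of ATP as a pump. Each family has its own substrates and its own membranes, so that some members work at the cell surface, some in lysosomes and endosomes, and the Slc25 family in the inner mitochondrial membrane. In macrophages and microglia they feed energy metabolism, set cell volume and ion balance, and export the products of digested cell debris from lysosomes.

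Total counts ranged from 3664742 to 8455237 per sample, with a median of 5867848. Microglial markers (10 genes) summed to between 23919 and 36868 CPM in PS2APP and between 30544 and 40402 CPM in non-Tg, and no marker of this list was at 0. The sort also held traces of other cells. Neuronal markers (12 genes) summed to between 62.9 and 229 CPM in PS2APP and between 224 and 455 CPM in non-Tg, and markers of oligodendrocyte precursors (5 genes) to between 11.2 and 37.3 CPM in PS2APP and between 3.54 and 9.99 CPM in non-Tg. Markers of choroid plexus and ependyma (8 genes) summed to between 13.6 and 34.5 CPM in PS2APP and between 10.1 and 425 CPM in non-Tg, highest in non-Tg samples 9 and 13, and 2 of 3 tested were called lower. Oligodendrocyte markers (8 genes) summed to between 121 and 270 CPM in PS2APP and between 187 and 772 CPM in non-Tg, highest in non-Tg sample 9, with 0 of 6 called. Astrocyte markers (8 genes) summed to between 35.7 and 71.2 CPM in PS2APP and between 41.7 and 87.4 CPM in non-Tg, with 1 of 6 called higher. Those of border-associated macrophages (6 genes) summed to between 61.0 and 241 CPM in PS2APP and between 36.5 and 221 CPM in non-Tg, with 0 of 6 called. Immediate early genes were high in PS2APP samples 1 and 4 and non-Tg samples 9 and 13. Xist was low in 1 of 9 PS2APP samples (sample 14) and 2 of 6 non-Tg samples (12 and 13). In these libraries Ddx3y, a gene of the Y chromosome, stood at 110 CPM in PS2APP sample 14 and at 98.6 and 229 CPM in non-Tg samples 12 and 13, against at most 0.678 CPM elsewhere. In bulk samples, fewer cells of a type and less RNA per cell cannot be told apart.

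In these samples the 20 highest members made up 50.2% of the RNA summed over the members. Levels are compared between genes as RPKM, reads per kilobase of gene model and scaled to library size, averaged over the 15 samples. The members ran between 0.0841 and 45.9 RPKM with a median of 1.71, and 20 of the 190 reached 10 RPKM, 99 lay between 1 and 10, and 71 were under 1. The 5 highest took 22.1% of the RPKM summed over all members, the 10 highest 33.6% and the 100 highest 92.4%. In both genotypes together the order began with Slc7a8 at 45.9 RPKM, Slc29a3 at 42.6, Slc2a5 at 36.1, Slc9a9 at 26.9 and Slc12a2 at 22.3 RPKM. Slc7a8 encodes LAT2, an exchanger of large neutral amino acids, Slc29a3 the lysosomal nucleoside transporter ENT3, and Slc2a5 the fructose transporter GLUT5, which is used to identify microglia in brain tissue. Slc9a9 encodes the endosomal sodium and proton exchanger NHE9.

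The stretches of 250 bases before the RefSeq start sites of the 3 highest members are shown because these genes carry the largest share of the RNA summed over the members. That of Slc35a5, a Golgi member of the nucleotide sugar transporter family at 9.70 RPKM, is added as an abundant member whose stretch holds CACGTG. They are written in the direction of transcription in build GRCm38.p6, for Slc7a8 from chr14:54781887-54782136, minus strand, for Slc29a3 from chr10:60752783-60753032, minus strand, for Slc2a5 from chr4:150119094-150119343, plus strand and for Slc35a5 from chr16:45158674-45158923, minus strand. The Slc29a3 gene spans 60712072 to 60752849 in RefSeq, so part of its stretch lies inside the gene rather than before it.
Slc7a8: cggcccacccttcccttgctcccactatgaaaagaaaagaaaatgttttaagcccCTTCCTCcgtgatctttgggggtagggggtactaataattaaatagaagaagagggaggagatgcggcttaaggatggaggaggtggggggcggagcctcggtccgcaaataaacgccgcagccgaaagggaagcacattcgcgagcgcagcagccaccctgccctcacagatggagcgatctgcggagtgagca
Slc29a3: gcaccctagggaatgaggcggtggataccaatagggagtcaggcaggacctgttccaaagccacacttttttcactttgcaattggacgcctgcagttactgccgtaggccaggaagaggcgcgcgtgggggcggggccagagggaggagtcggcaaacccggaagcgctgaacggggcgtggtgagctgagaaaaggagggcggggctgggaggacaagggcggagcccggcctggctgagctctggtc
Slc2a5: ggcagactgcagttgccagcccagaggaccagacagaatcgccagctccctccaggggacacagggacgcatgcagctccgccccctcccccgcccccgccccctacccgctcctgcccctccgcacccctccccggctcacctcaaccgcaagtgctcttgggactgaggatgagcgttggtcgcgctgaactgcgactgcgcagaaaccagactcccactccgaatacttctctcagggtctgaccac
Slc35a5: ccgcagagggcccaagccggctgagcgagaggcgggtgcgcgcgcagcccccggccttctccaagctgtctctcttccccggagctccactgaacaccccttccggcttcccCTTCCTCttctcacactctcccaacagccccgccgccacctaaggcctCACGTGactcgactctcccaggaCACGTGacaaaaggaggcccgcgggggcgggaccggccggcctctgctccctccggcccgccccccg
Capitals mark matches, on either strand, to GAGGAAG, a core bound by the macrophage factor PU.1 (read as CTTCCTC on the opposite strand), and to CACGTG, an E-box bound by factors such as TFEB, TFE3, USF and MYC. These motifs share no letters where they occur here. Slc7a8 held 1 GAGGAAG, Slc35a5 held 1 GAGGAAG and 2 CACGTG, and these letters were not in the windows of Slc29a3 and Slc2a5. RefSeq stretches were matched to 144 of the 190 members. GAGGAAG was in 14 of the 142 matched members that were tested (9.86%) and in 13.2% of the 10255 matched genes tested, and CACGTG in 24 of the 142 (16.9%) and in 9.76% of the genes tested. These shares are a description and no test was made of them.

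**Figure D1:**
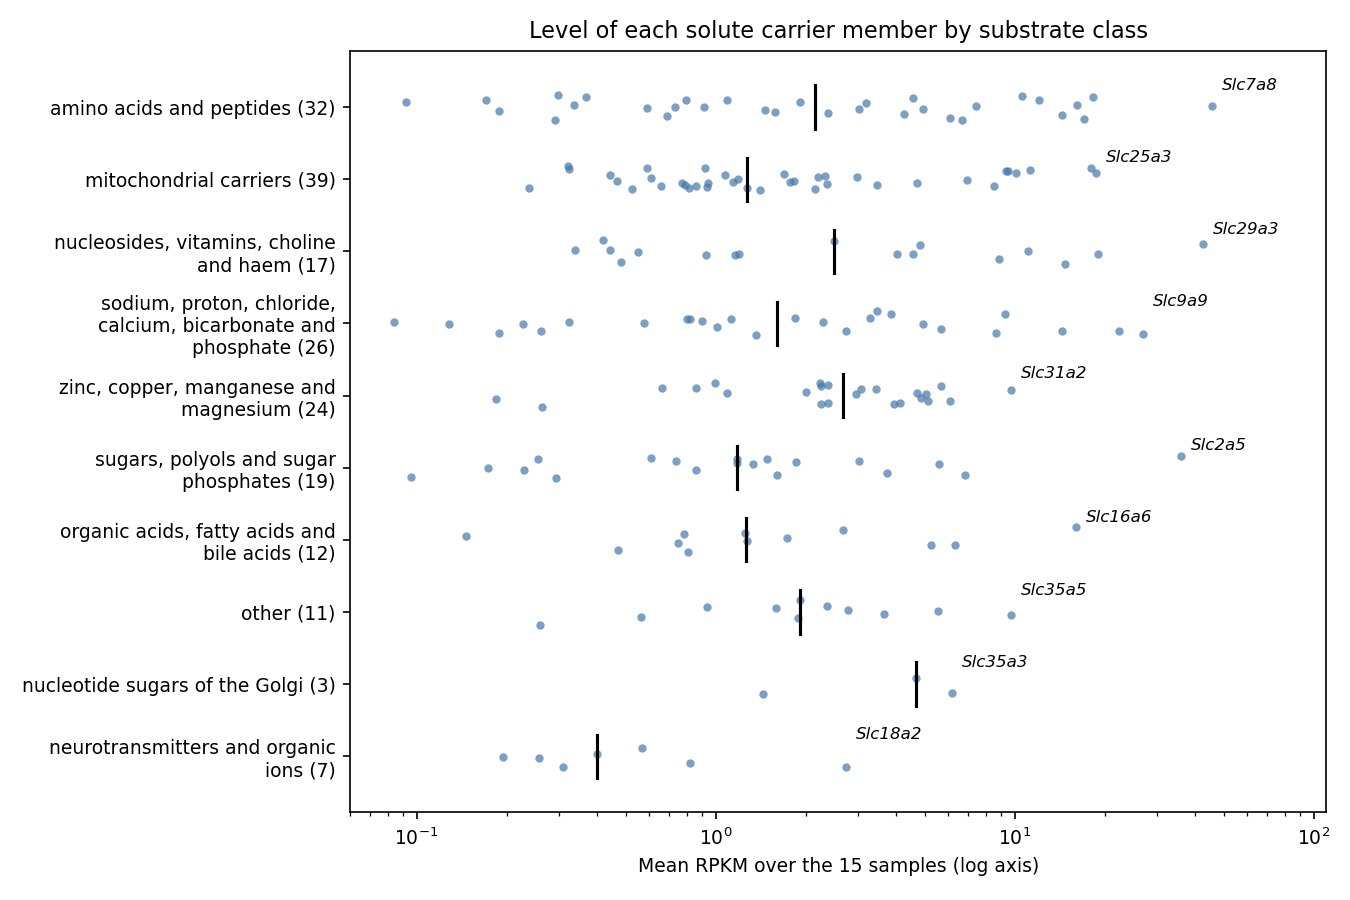
Mean RPKM over the 15 samples on a log axis for each of the 190 members, in rows by substrate class with the number of members in brackets, black bars at class medians, the highest member of each class named, and vertical jitter without meaning. The classes overlap over most of the range, and Slc7a8, Slc29a3 and Slc2a5 stand at 45.9, 42.6 and 36.1 RPKM.

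Within many families 1 member held most of the RNA. Slc2a5 made up 84.9% of the summed RPKM of the 9 members of the Slc2 sugar transporter family, Slc29a3 89.2% of the 3 nucleoside transporters and Slc7a8 68.9% of the 8 Slc7 members. Slc1a3, the glutamate transporter GLAST, made up 88.7% of Slc1, Slc44a2, a choline transporter-like protein, 80.6% of Slc44, and Slc6a6, the taurine transporter, 90.7% of Slc6. The sodium and calcium exchanger Slc8a1 held 98.5% of Slc8 and the vitamin C transporter Slc23a2 96.3% of Slc23. The mitochondrial Slc25 family was spread more evenly, with Slc25a3, the phosphate carrier, first among 39 members at 13.9%. It was not alone in this, as the highest members of Slc39, Slc30 and Slc38 held 16.1%, 27.5% and 46.7%. These shares cover the members as chosen, without the genes set aside by name.

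The total carrier output was close between the genotypes. Members took 1.30% ± 0.0466 of the counts in PS2APP (SD, n = 9) and 1.32% ± 0.123 in non-Tg (n = 6). Their summed RPKM lay between 736.6 and 852.5 in PS2APP and between 732.4 and 1003 in non-Tg, with means of 770.5 ± 41.5 and, in non-Tg, 812.6 ± 99.6, so that the ranges overlapped. By class, amino acid and peptide carriers held 23.9% of the summed RPKM, mitochondrial carriers 17.0%, carriers of nucleosides, vitamins, choline and haem 14.9%, ion carriers 14.9%, metal carriers 9.69% and sugar carriers 8.53%. Carriers of organic, fatty and bile acids held 4.76%, nucleotide sugar carriers 1.56% and neurotransmitter and organic ion carriers 0.671%.

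Slc12a2 was the member that passed the test for genotype. It encodes NKCC1, which takes up sodium, potassium and chloride together and helps to set cell volume and internal chloride. In CPM scaled for library composition, PS2APP samples 1, 3, 4, 6, 7, 8, 10, 14 and 15 had 572.5, 840.2, 368.0, 672.7, 768.9, 701.1, 741.7, 702.6 and 739.8, and non-Tg samples 2, 5, 9, 11, 12 and 13 had 307.7, 522.9, 271.2, 399.6, 385.4 and 433.6. Of the 9 PS2APP samples 8 lay above the highest non-Tg sample, and PS2APP sample 4, 1 of the libraries high in immediate early genes, lay within the non-Tg range. Slc12a2 rose 1.75-fold in PS2APP, a log2 difference (the log2 fold change, PS2APP over non-Tg) of 0.81 ± 0.17 (SE; 95% interval 0.45 to 1.17; edgeR adjusted p = 0.018, quasi-likelihood test adjusted for age over 13994 genes). Its level was 26.9 ± 5.47 RPKM in PS2APP and 15.4 ± 3.65 RPKM in non-Tg. The gene lies on chromosome 18 from 57878512 to 57946821 and overlaps no other gene of the RefSeq table.

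Slc12a2 stayed called in 26 of 32 other settings (adjusted p = 0.000207 to 0.687) and in 14 of the 15 fits that left out 1 sample, and its difference was positive in all 32. It was not called without non-Tg sample 2 (0.75, adjusted p = 0.0504), without the 3 libraries low in Xist (0.82, adjusted p = 0.114) or with the neuronal marker score as a covariate (0.66, adjusted p = 0.574). The fit without the low-Xist libraries called 81 of all genes and the covariate fit 28, against 165 in the reported test. The score was the mean log2 CPM over the tested neuronal markers. Their summed CPM nearly separated the genotypes, and how far the score itself did was not measured. The covariate fit, here and below, was therefore not taken to tell the score from genotype. Both limma fits on log2(RPKM + 1) also lost the call, at adjusted p = 0.0602 and, with no filter on low values, 0.117. At 14 months alone, with 4 PS2APP and 2 non-Tg samples, the log2 fold change was 0.46 (adjusted p = 0.687), and at 15 months alone, with 5 and 4, it was 1.04 (adjusted p = 0.0084). The genotype by age interaction was 0.62 ± 0.33 (SE, adjusted p = 0.685), so the ages were not shown to differ. With the 4 libraries rich in immediate early genes left out it was 0.85 (adjusted p = 0.00905). The markers of oligodendrocyte precursors, a cell type that also uses NKCC1, summed to 11.2 to 37.3 CPM in PS2APP and 3.54 to 9.99 CPM in non-Tg over 5 genes, none at 0 in all samples, so these ranges did not overlap, and 1 of 2 tested markers was called higher. Choroid plexus and oligodendrocytes also use NKCC1, and their markers had their highest sums in non-Tg, as given above. The part of these 3 marker lists in the Slc12a2 result was not tested.

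**Figure D2:**
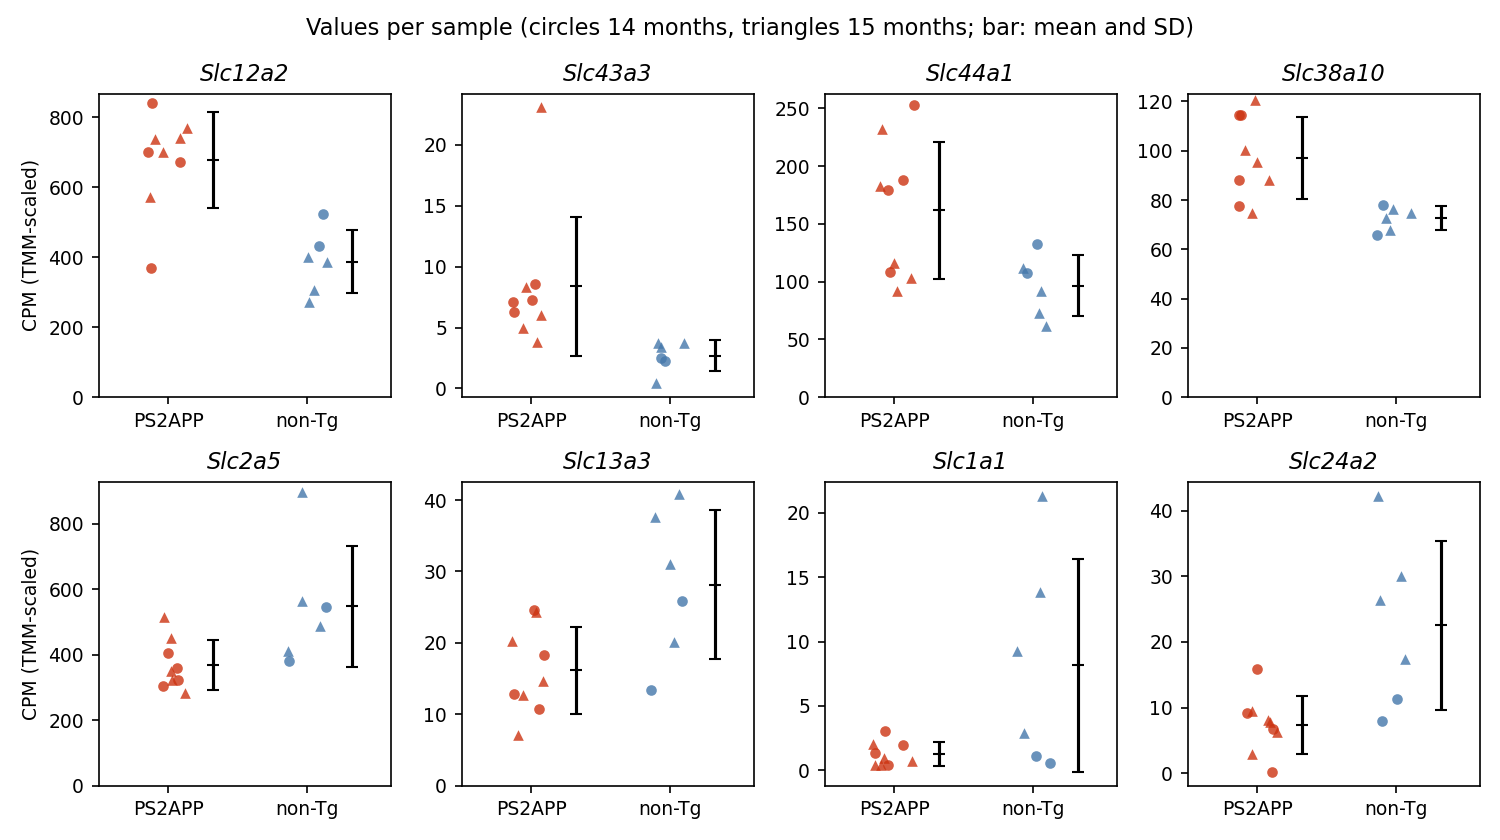
TMM-scaled CPM per sample for 8 carriers, PS2APP in red on the left and non-Tg in blue on the right of each panel, circles for 14 months, triangles for 15 months, with black bars at the mean and SD of each group. Slc12a2 lies between 368.0 and 840.2 CPM in PS2APP and between 271.2 and 522.9 CPM in non-Tg, and among the 8 the groups do not overlap for Slc43a3.

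Across the members the test called 1 of 187, or 0.535%, against 1.18% of all 13994 genes tested, and no member was called lower. The 3 members not tested, Slc2a2 and Slc24a4 among them, did not pass the filter on low counts. The background was 0.958% higher and 0.222% lower. At an unadjusted p under 0.05 there were 17 members (9.09%), 8 higher and 9 lower, against 11.7% of all genes (5.73% higher and 5.95% lower). DESeq2 called Slc12a2, Slc43a3 and Slc1a1 among 388 genes, and limma-voom Slc12a2 among 200 genes. The median log2 fold change over the members was -0.01, with 91 positive and 96 negative, and over all genes it was -0.02. In 1 member, Slc43a3, the groups did not overlap, which held for 0.636% of all genes. The share of carriers that differed was thus no higher than that of genes at large.

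**Figure D3:**
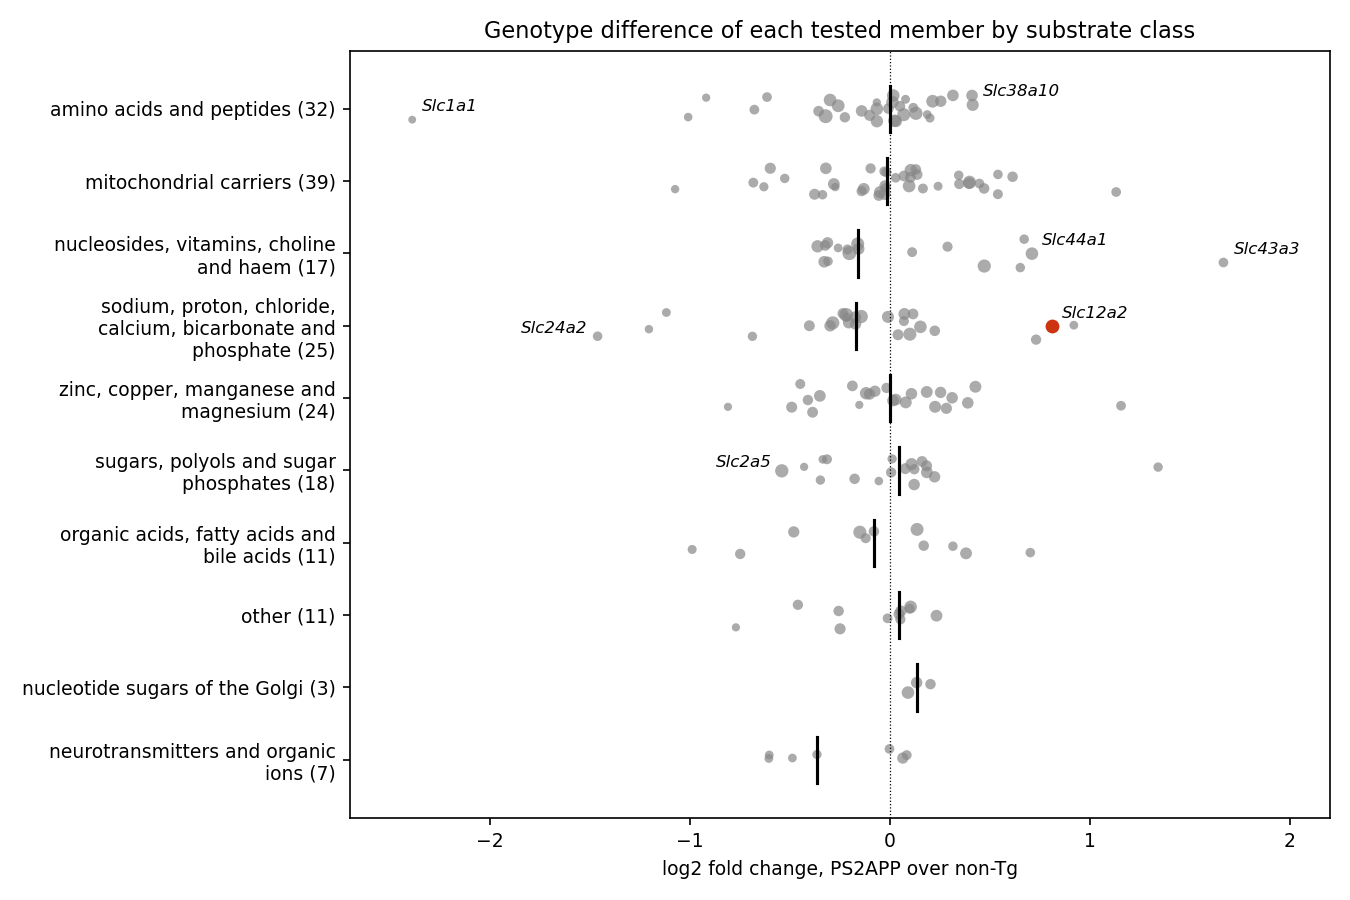
Log2 fold change of PS2APP over non-Tg for each tested member, in rows by substrate class with the number tested in brackets, black bars at class medians, larger points for higher CPM in PS2APP, red for an adjusted p under 0.05, and vertical jitter without meaning. Slc12a2 at 0.81 is the red point, and the class medians lie between -0.37 and 0.13.

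Intervals were wider for low members. The 95% interval of the fold change lay within 2-fold either way for 122 of the 187 tested members (65.2%), against 56.5% of all genes. At 20 CPM or more it did so for 92 of 101 members (91.1%), against 88.2% of all genes tested at that level. Under 20 CPM it did so for 30 of 86 (34.9%), against 24.5% of all genes tested there. For most abundant carriers changes past 2-fold thus lay outside the interval, while for low ones they could not be told from the spread. A missed threshold does not show that a level was equal.

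**Figure D4:**
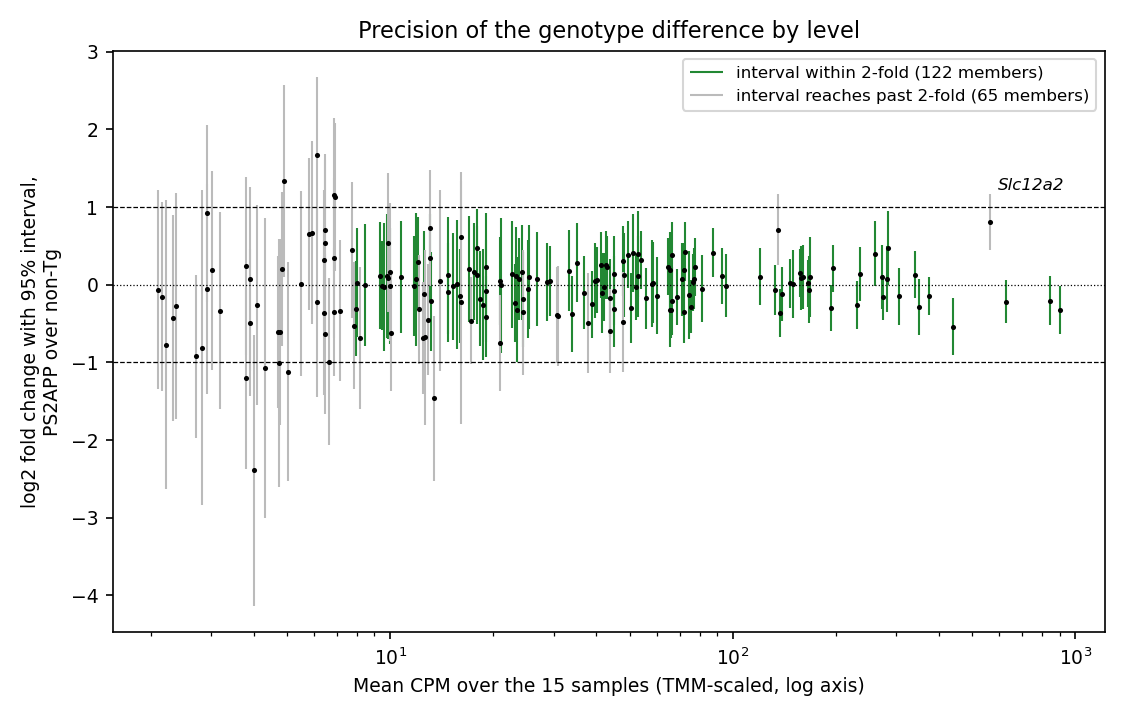
Log2 fold change of PS2APP over non-Tg with its 95% interval against mean CPM on a log axis for the 187 tested members, green where the interval lies within 2-fold (dashed lines) and grey where it reaches past. Intervals narrow with level, and Slc12a2 lies above 0 with an interval of 0.45 to 1.17.

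Amino acid and peptide carriers were called in 0 of 32 members, with a median log2 fold change of 0.00. An unadjusted p under 0.05 was found for 4 (12.5%), against 11.7% of all genes. Slc7a8 ran between 598 and 1209 CPM in PS2APP (median 762) and between 807 and 1263 CPM in non-Tg (median 1043), with 6 of 9 PS2APP samples below the lowest non-Tg sample. Its log2 fold change was -0.32 ± 0.15 (SE, 95% interval -0.63 to -0.01, edgeR adjusted p = 0.403). Slc3a2, the heavy chain that carries LAT1 and LAT2 to the cell surface, stood at 17.0 ± 2.78 RPKM in PS2APP and 20.3 ± 3.87 RPKM in non-Tg, and Slc7a5, which encodes LAT1, at 4.39 ± 1.69 and, in non-Tg, 4.86 ± 1.28 RPKM. Their log2 fold changes were -0.26 (95% interval -0.57 to 0.05) and -0.14 (-0.64 to 0.36). The glutamate transporter Slc1a3 was nearly equal, with 10.6 ± 1.61 RPKM in PS2APP and 10.5 ± 1.58 RPKM in non-Tg and an interval of -0.28 to 0.32.

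Slc15a3, Slc15a4 and Slc38a9, which work in lysosomes, did not pass the test. Slc15a3, which exports histidine and small peptides, stood at 17.2 ± 4.65 RPKM in PS2APP and 17.0 ± 6.45 RPKM in non-Tg, with an interval of -0.42 to 0.45 on the log2 scale. Slc15a4, its relative in Toll-like receptor signalling, had an interval of -0.33 to 0.39, and Slc38a9, the lysosomal arginine sensor, had -0.38 to 0.25. Slc38a10, a carrier of glutamine and other amino acids, ran between 74.6 and 120 CPM in PS2APP and between 65.9 and 78.2 CPM in non-Tg. In 7 of 9 PS2APP samples it lay above the highest non-Tg sample, with a log2 fold change of 0.41 ± 0.15 that did not pass the test (adjusted p = 0.234). Wider intervals were those of Slc7a11 and Slc1a5. Slc7a11, the cystine and glutamate exchanger xCT, had an interval of -0.88 to 0.86 and the glutamine carrier Slc1a5 had -1.11 to 1.26.

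Sugar carriers were called in 0 of 18 tested members, with a median log2 fold change of 0.04. There 2 (11.1%) had an unadjusted p under 0.05, against 11.7% of all genes. Slc2a5 ran between 283 and 516 CPM in PS2APP (median 350) and between 380 and 897 CPM in non-Tg (median 516), with 6 of 9 PS2APP samples below the lowest non-Tg sample. Its level was 30.1 ± 6.07 RPKM in PS2APP and 45.0 ± 15.2 RPKM in non-Tg, with a log2 difference of -0.54 ± 0.18 (SE, 95% interval -0.91 to -0.18, edgeR adjusted p = 0.175). The highest value was that of non-Tg sample 11, without which the log2 fold change was -0.37 (adjusted p = 0.340). With the 4 libraries rich in immediate early genes left out it was -0.82 and was called (adjusted p = 0.0388, the lowest over 32 settings, of which the highest was 0.685). The summed microglial markers, given above, also had their lowest values in PS2APP, and their part in this was not tested.

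None of the other sugar carriers passed the test. Slc50a1, the sugar channel SWEET1, stood at 7.09 ± 1.44 RPKM in PS2APP and 6.48 ± 3.11 RPKM in non-Tg, and Slc37a2, a sugar phosphate exchanger of macrophages, at 5.73 ± 1.24 and, in non-Tg, 5.40 ± 1.16 RPKM. Slc45a4, of a proton-coupled sugar transporter family, had a log2 fold change of 0.22 ± 0.20. Slc2a6, the lysosomal GLUT6, ran between 2.54 and 16.3 CPM in PS2APP and between 0.413 and 6.12 CPM in non-Tg. Its log2 difference of 1.34 ± 0.59 (edgeR adjusted p = 0.375) rested on 310 reads in PS2APP and 95 in non-Tg. The 4 PS2APP samples above the non-Tg range leave the other 5 within it.

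Carriers of nucleosides, vitamins, choline and haem were called in 0 of 17 members. Of these, 3 (17.6%) had an unadjusted p under 0.05, against 11.7% of all genes. The class median was -0.16. That median rested on the libraries used, since it was 0.01 without non-Tg sample 11, with -0.23 the lowest with 1 sample left out, and 0.35 at 14 months alone. Slc29a3 ran between 606 and 1067 CPM in PS2APP and between 733 and 1248 CPM in non-Tg, with a log2 fold change of -0.20 ± 0.15 (SE, 95% interval -0.52 to 0.11). Slc44a2 stood at 18.1 ± 3.10 RPKM in PS2APP and 20.2 ± 1.82 RPKM in non-Tg, and Slc46a1, the proton-coupled folate transporter, at 7.90 ± 2.10 and, in non-Tg, 10.3 ± 4.14 RPKM. Slc46a3, a lysosomal member of the same family, ran between 94.5 and 151 CPM in PS2APP and between 122 and 224 CPM in non-Tg. In 5 of 9 PS2APP samples it lay below the lowest non-Tg sample, with a log2 difference of -0.36 ± 0.15 (edgeR adjusted p = 0.326).

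The highest fold changes of this class were those of Slc43a3 and Slc44a1, and neither passed the test. Slc43a3, the purine nucleobase transporter ENBT1, ran between 3.84 and 23.1 CPM in PS2APP (median 7.09) and between 0.413 and 3.75 CPM in non-Tg (median 2.95), so that every PS2APP sample lay above every non-Tg sample. Its log2 fold change was 1.67 ± 0.48 (SE, 95% interval 0.66 to 2.67, edgeR adjusted p = 0.116), from 400 reads in PS2APP and 103 in non-Tg. Over 32 other settings its adjusted p was 0.0158 to 0.779. DESeq2 called it (adjusted p = 0.0158), as did edgeR with no filter on low counts (adjusted p = 0.0448). Slc44a1, the choline transporter CTL1, ran between 91.5 and 253 CPM in PS2APP (median 179) and between 61.8 and 133 CPM in non-Tg (median 99.6). There 5 of 9 PS2APP samples lay above the non-Tg range, and the log2 fold change was 0.71 ± 0.22 (adjusted p = 0.151). Slc44a1 was called with no filter on low counts (adjusted p = 0.00778, with up to 0.779 in other settings). With the neuronal marker score as a covariate the values were 1.18 for Slc43a3 and 0.48 for Slc44a1.

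Ion carriers gave the 1 call, Slc12a2, among 25 tested members. The class median was -0.17 (-0.24 to -0.08 with 1 sample left out, and -0.08 without PS2APP sample 14). It was -0.01 at 14 months alone and -0.19 at 15 months alone. Between non-Tg samples the median of this class varied with an SD of 0.20. Slc9a9 ran between 286 and 443 CPM in PS2APP and between 274 and 597 CPM in non-Tg, with a log2 fold change of -0.29 ± 0.18 (SE). Without non-Tg sample 11 the log2 fold change of Slc9a9 was -0.10, and without non-Tg sample 5 it was -0.19. Slc8a1 stood at 8.12 ± 0.895 RPKM in PS2APP and 9.47 ± 1.83 RPKM in non-Tg, with an interval of -0.50 to 0.06.

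The low members Slc24a2, Slc4a8 and Slc1a1, known from neurons, had their highest values in non-Tg samples. Slc24a2, the potassium-dependent sodium and calcium exchanger NCKX2, ran between 0.186 and 15.9 CPM in PS2APP (median 7.82) and between 7.88 and 42.3 CPM in non-Tg (median 21.9). Its log2 difference was -1.46 ± 0.51 (SE, edgeR adjusted p = 0.209). Slc4a8, a sodium-driven chloride and bicarbonate exchanger, ran between 0.248 and 5.25 CPM in PS2APP and between 1.86 and 9.55 CPM in non-Tg, a log2 difference of -1.21 ± 0.56 (adjusted p = 0.405). Slc1a1, the neuronal glutamate transporter EAAC1, ran between 0.372 and 3.01 CPM in PS2APP (median 0.977) and between 0.525 and 21.3 CPM in non-Tg (median 6.06), with 65 reads in PS2APP and 289 in non-Tg. Its log2 fold change was -2.39 ± 0.84 (adjusted p = 0.212).

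For Slc1a1 the high non-Tg values came at 15 months. The 4 non-Tg samples of that age had 21.3, 2.87, 13.8 and 9.24 CPM and the 2 of 14 months had 1.10 and 0.525 CPM, while PS2APP samples of both ages had 0.372 to 3.01 CPM. The log2 fold change of Slc1a1 was -3.66 at 15 months alone (adjusted p = 0.0334) and 1.15 at 14 months alone (adjusted p = 0.763). The interaction was -4.76 ± 1.28 (SE, unadjusted p = 0.00131, adjusted p = 0.568). Slc1a1 was also called by DESeq2 (adjusted p = 0.0175), with no age term (0.044) and with no filter (0.0412), with up to 0.832 in other settings. Slc24a2 was called at 15 months alone (-2.08, adjusted p = 0.0334) and with no filter (-1.45, adjusted p = 0.00681), with up to 0.963 in other settings. Neuronal markers (12 of 12 found, none at 0 in all samples) summed in the same libraries to between 62.9 and 229 CPM in PS2APP and between 224 and 455 CPM in non-Tg, with 1 of 10 tested called lower. The sums were 224 and 234 CPM in non-Tg samples 5 and 13, of 14 months. In non-Tg samples 2, 9, 11 and 12, of 15 months, they were 239, 455, 297 and 271 CPM. The part of neuronal RNA in these results was not tested. With the neuronal marker score as a covariate the log2 fold change was -1.35 for Slc1a1, -0.46 for Slc24a2 and -0.55 for Slc4a8. None was called, as in the reported test. Since the marker sums nearly separated the genotypes, this fit was not taken to tell the score, a mean of log2 values, from genotype. It called 28 of all genes, against 165 in the reported test.

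Mitochondrial carriers were called in 0 of 39 members, with a median of -0.02. Before adjustment 2 (5.13%) had a p under 0.05, against 11.7% of all genes. Slc25a3, the phosphate carrier, stood at 19.2 ± 4.29 RPKM in PS2APP and 17.8 ± 4.14 RPKM in non-Tg. The ADP/ATP carriers Slc25a4 and Slc25a5 stood at 17.1 ± 5.19 and 11.2 ± 3.14 RPKM in PS2APP and at 19.2 ± 10.9 and 11.4 ± 2.34 RPKM in non-Tg. These carriers have processed copies elsewhere in the genome, and since the counts hold uniquely aligned reads their levels are uncertain. Slc25a36, a pyrimidine nucleotide carrier, had a log2 difference of 0.40 ± 0.20 (SE, edgeR adjusted p = 0.456). Slc25a23, which exchanges ATP-magnesium for phosphate, ran between 19.2 and 76.5 CPM in PS2APP and between 38.3 and 79.6 CPM in non-Tg, with 7 of 9 PS2APP samples below the non-Tg range and a log2 difference of -0.60 ± 0.26 (adjusted p = 0.359). Slc25a53, of unassigned substrate here, had 1.13 ± 0.46 (adjusted p = 0.312), and its gene overlaps Zcchc18.

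Metal carriers were called in 0 of 24 members, with a median of -0.00. The unadjusted p was under 0.05 for 2 (8.33%), against 11.7% of all genes. Slc31a2, a copper transporter of lysosomes and endosomes, ran between 61.4 and 115 CPM in PS2APP and between 44.1 and 97.8 CPM in non-Tg, a log2 difference of 0.43 ± 0.18 (SE, edgeR adjusted p = 0.340). The zinc family members Slc30a9 and Slc39a12 stood at 6.47 ± 1.30 and 5.70 ± 2.34 RPKM in PS2APP and at 5.46 ± 1.45 and 5.61 ± 2.53 RPKM in non-Tg. Slc30a4, a zinc transporter of vesicles, had a log2 difference of 0.39 ± 0.21 (adjusted p = 0.479). Slc39a4, the zinc importer ZIP4, ran between 3.56 and 20.8 CPM in PS2APP and between 0.814 and 5.98 CPM in non-Tg. In 5 of 9 PS2APP samples it lay above the non-Tg range, and its log2 difference was 1.16 ± 0.47 (adjusted p = 0.321).

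Carriers of organic, fatty and bile acids were called in 0 of 11 tested members, with a median of -0.08. In this class 1 (9.09%) had an unadjusted p under 0.05, against 11.7% of all genes. Slc16a6, a member of the monocarboxylate family, stood at 15.3 ± 3.67 RPKM in PS2APP and 17.1 ± 3.64 RPKM in non-Tg, and Slc16a7, the pyruvate and lactate transporter MCT2, at 5.44 ± 0.891 and, in non-Tg, 4.95 ± 1.26 RPKM. Slc16a6 overlaps Arsg, and whether the counting used strand is not stated. Slc10a3, an orphan of the bile acid family, had a log2 fold change of -0.48 ± 0.31, which was -0.14 without non-Tg sample 11. Slc16a10, a transporter of aromatic amino acids placed here by its family, had 0.38 ± 0.21, and 0.23 without PS2APP sample 14. Slc13a3, the dicarboxylate transporter NaDC3, ran between 7.13 and 24.6 CPM in PS2APP and between 13.4 and 40.9 CPM in non-Tg, a log2 difference of -0.75 ± 0.30 (SE, edgeR adjusted p = 0.295). It overlaps the predicted gene Gm14437. Slc10a1, the bile acid transporter NTCP of liver, had -0.99 ± 0.52 (adjusted p = 0.472) from 225 reads in PS2APP and 368 in non-Tg.

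The remaining classes gave 0 calls in edgeR and 0 at an unadjusted p under 0.05, against 11.7% of all genes at that unadjusted p. The Golgi carriers Slc35a3 for UDP-N-acetylglucosamine, Slc35a1 for CMP-sialic acid and Slc35a2 for UDP-galactose had log2 fold changes of 0.09, 0.13 and 0.20, and the median of these 3 was 0.13. That median was 0.05 without PS2APP sample 10 and 0.27 without non-Tg sample 5. Among 7 neurotransmitter and organic ion carriers the median was -0.37. It was -0.05 without non-Tg sample 9, -0.17 without non-Tg sample 12, -0.20 without PS2APP sample 15 and 0.05 with the neuronal marker score as a covariate. The highest of them was Slc18a2, the vesicular monoamine transporter VMAT2, at 2.77 ± 0.446 RPKM in PS2APP and 2.66 ± 0.991 RPKM in non-Tg. Slc22a5, the carnitine transporter, and Slc6a8, the creatine transporter, stood at 0.819 ± 0.240 and 0.572 ± 0.222 RPKM in PS2APP and at 0.823 ± 0.526 and 0.565 ± 0.293 RPKM in non-Tg. The GABA transporter Slc6a11 had a log2 fold change of -0.61 ± 0.47, and Slc22a21 and Slc22a23, of the organic ion family, -0.49 ± 0.46 and -0.60 ± 0.58. Without non-Tg sample 9 the value was -0.32 for Slc6a11 and -0.04 for Slc22a21, and without non-Tg sample 11 it was -0.31 for Slc22a23. Of the 11 other members, with a median of 0.05, Slc35a5, Slc33a1, the acetyl-CoA transporter of the endoplasmic reticulum, and Slc35a4 had 0.10, 0.23 and -0.25, and the scaffold Slc9a3r1 -0.46 ± 0.27.

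Age and its interaction with genotype called 0 members and 0 genes in edgeR. At an unadjusted p under 0.05 age, as 15 over 14 months, gave 14 members (7.49%, against 7.95% of all genes), and the interaction 18 members (9.63%, against 7.42% of all genes). DESeq2 called 0 members for either term, among 10 genes for age and 6 for the interaction, and limma-voom 0 members and 0 genes.

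Carriers outside the naming pattern and genes that work with carriers were read from lists of related genes. Of 40 tested carriers with other names edgeR called 0, with a median of -0.06. Among the 40, 3 had an unadjusted p under 0.05, against 11.7% of all genes. Slco4a1, an organic anion transporter, ran between 15.6 and 33.7 CPM in PS2APP and between 26.9 and 66.0 CPM in non-Tg, a log2 difference of -0.85 ± 0.21 (SE, edgeR adjusted p = 0.0505). Slco2b1, of the same family, stood at 67.3 ± 7.30 RPKM in PS2APP and 80.9 ± 9.85 RPKM in non-Tg, above the level of every member, with -0.24 ± 0.12 (adjusted p = 0.434). Among 5 tested proteins that partner with carriers, Anxa2, a membrane-binding annexin, rose, with 4.07 to 17.5 CPM in PS2APP and 0.749 to 5.24 CPM in non-Tg and a log2 difference of 2.10 ± 0.48 (adjusted p = 0.0294).

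Amino acid sensing at the lysosome, where carriers report nutrient supply to mTORC1, gave 0 of 18 calls. In this list 4 of 18 had an unadjusted p under 0.05, against 11.7% of all genes. Rraga, a Rag GTPase of this complex, had a log2 difference of 0.85 ± 0.23 (SE, edgeR adjusted p = 0.0813), Rragd 1.10 ± 0.36 (adjusted p = 0.181) and the leucine sensor family gene Sesn1 -0.44 ± 0.16 (adjusted p = 0.214). Of 8 tested regulators of amino acid and oxidative stress edgeR called 0. Of the 8, 1 had an unadjusted p under 0.05, against 11.7% of all genes. Among them Srxn1, an antioxidant enzyme, had 1.36 ± 0.51 (adjusted p = 0.249) and Atf4, the transcription factor of the amino acid response, -0.51 ± 0.27 (adjusted p = 0.472).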

How the data were processed

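Each sample has a table of 36528 NCBI Gene IDs. Per the file headers, the authors deposited the raw count of reads that align uniquely to each gene model and an RPKM scaled by a size factor per sample. The submitters' processing notes name GSNAP and the build GRCm38. The sources used here do not give the version, annotation or strandedness. A RefSeq table of GRCm38.p6 named 31049 IDs, which held 97.2% to 98.2% of the counts of each sample.

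Genotype (PS2APP over non-Tg) was tested on the deposited counts with edgeR 4.0.16 in R 4.3.3. After filterByExpr (13994 genes) and TMM scaling, the quasi-likelihood model held terms for age and genotype over the 15 samples. Calls were made at a p under 0.05 after Benjamini-Hochberg adjustment over all genes tested. CPM values per sample are scaled by TMM, and each SE was taken from the log2 fold change (log2 difference) and its F statistic. On simulated counts of 13885 genes the genotype step recovered 33% of 2-fold and 85% of 4-fold changes with 1.67% false calls. Over 51 pairs of samples of a group the chi-square per degree of freedom was 9.98 or more. The spread was thus wider than read sampling alone gives, and each sample counted once. Whether samples came from different mice cannot be told from this.

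Substrate classes follow the Slc family. The members, classes, lists and tests were chosen with earlier results of these data known, and Slc7a6os was moved to the other class after the files were first read. Named are members called for genotype, age or interaction, in each class the 3 highest by RPKM and the 3 with the smallest genotype p, the genes next to the level threshold, and 12 carriers known from macrophages. A gene that this rule takes is not reported here. Of related lists, called genes and up to 3 of the smallest p are named. Slc6a6, Slc8a1, Slc23a2, Slc24a4, Slc25a2, Slc4a1ap, Slc7a6os and Slc9a3r2 fall outside this rule and were chosen after their values were seen. The alternatives used DESeq2 1.42.0, limma 3.58.1 and sva 3.50.0.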

Additional observations from a re-analysis of the deposited data

Results flagged for a closer look

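A sample far from the rest of its genotype, by the gap to its nearest neighbour over the whole range, was found 46 times in 380 groups of members. The cut-off is set to flag about 1 in 20 groups where values follow a normal distribution. Whether these CPM values do was not tested, and each flagged sample was the highest of its group. Non-Tg sample 11 accounted for 16 of the 46. Among the members described above, non-Tg sample 11 stood highest for Slc3a2 (344 CPM), Slc2a2 (17.1 CPM), Slc31a2 (97.8 CPM) and Slc2a5 (897 CPM). PS2APP sample 8 stood highest for Slc9a9 (443 CPM) and PS2APP sample 1 for Slc43a3 (23.1 CPM). Slc6a20b stood highest in PS2APP sample 7 (4.52 CPM) and, among non-Tg samples, in sample 13 (7.22 CPM). Slc39a5 stood highest in non-Tg sample 2 (6.51 CPM). Among members named besides the rule, Slc6a6 stood highest in non-Tg sample 11 (488 CPM, the next 315), Slc9a3r2 in PS2APP sample 4 (7.74 CPM) and Slc25a2 in PS2APP sample 10 (8.96 CPM). Slc24a4 stood highest in PS2APP sample 3 (1.19 CPM) and, among non-Tg samples, in sample 11 (31.98 CPM, the next 2.60).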

How the results depend on the processing

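The reported test called 1 member higher and 0 lower, among 165 of all genes. With no count filter the counts were 3 higher and 3 lower among 648 genes. Slc24a4 was among the lower, and its non-Tg value rests on sample 11, at 31.98 CPM with the next at 2.60. DESeq2 gave 2 and 1 among 388 genes, and the fit with no age term 1 and 1 among 176. With 1 surrogate variable there were 2 and 0 among 210 genes, where Slc23a2 was added. Limma on log2(RPKM + 1) called 0 with and without a filter (109 and 65 genes), as did the neuronal marker covariate (28 genes). At 14 months alone there were 0 higher and 1 lower (Slc25a2, among 50 genes), and at 15 months alone 1 and 2 (65 genes). Chosen after seeing the data were the fits without the libraries rich in immediate early genes or low in Xist. Leaving out the 4 rich in immediate early genes gave 1 higher and 1 lower, among 142 genes. Leaving out the 3 low in Xist gave 0 higher, among 81 genes. Leaving out each sample in turn gave 0 to 1 higher and 0 to 0 lower, among 118 to 188 genes. The cause of these differences was not tested. Other scalings, a filter at a mean CPM of 2, limma-voom, limma on log2(RPKM + 0.1) and a robust fit gave 1 and 0. These fits called from 146 genes (limma on log2(RPKM + 0.1)) to 200 genes (limma-voom). Class medians moved past the spread between non-Tg samples at 14 months alone (nucleosides and vitamins 0.35, nucleotide sugars 0.51) and without the low-Xist libraries (other members -0.19). Age and interaction stayed at 0 members in every setting run. No paired analysis was possible because the groups share no replicate numbers. Leaving out 1 sample moved the medians of amino acid (-0.06 to 0.03), mitochondrial (-0.04 to 0.07), sugar (-0.07 to 0.11), metal (-0.09 to 0.16), organic acid (-0.17 to 0.08) and other members (-0.10 to 0.05) to either side of 0. Members under 20 CPM had a median biological coefficient of variation of 0.549, against 0.287 at 20 CPM or more.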
